A study of Mus musculus with 27 samples.

Results

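Single wild-type (Wt) myofibers of the mouse tibialis anterior, a fast hindlimb muscle, were profiled on 8 microarrays, out of 27 myofibers in the whole series. They were chosen by the genotype in the labels alone. All 8 came from 2 male Wt mice aged 3 months, with 4 myofibers from each mouse, and no cell transplant or other treatment is listed for them. The series holds them as controls for mice without Smn1 in skeletal muscle, and those mice were not analysed here. Myofibers 1 to 4 are replicates 1 to 4 of mouse 1, and myofibers 5 to 8 are replicates 1 to 4 of mouse 2. Each myofiber was freed with type I collagenase, picked under a stereomicroscope and lysed on its own, so its array shows 1 multinucleated cell and whatever adhered to it. With 2 animals, p-values measure the spread between these myofibers and say nothing of Wt mice in general. All 8 arrays lay on 1 slide. Mouse 1 filled 2 of its columns and mouse 2 the others, so mouse and slide column cannot be told apart. Odd-numbered myofibers lay in slide row 1 and even-numbered myofibers in slide row 2.

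A myofiber is a long syncytium whose contractile speed and fuel use follow largely from the myosin heavy chain it makes. Myh7 serves slow oxidative fibers, Myh2 fast oxidative IIa fibers, Myh1 IIx fibers and Myh4 the fast glycolytic IIb fibers that fill most of this muscle in the mouse. Fast glycolytic fibers carry much parvalbumin, a calcium buffer that speeds relaxation, and many glycolytic enzymes, whereas oxidative fibers carry more myoglobin and mitochondria.

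Levels are log2 processed signals minus the log2 of the array's 75th percentile, so a level of 0 equals that percentile and a step of 1 is a factor of 2. Signals depend on the probe as well as on the transcript, and are therefore compared between myofibers and not between genes. The scaling also removes any difference in the amount of RNA per myofiber. The RNA went through 18 cycles of amplification and was labelled as double-stranded cDNA, so sense and antisense transcripts cannot be told apart.

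The myofibers carried the markers of skeletal muscle. The probes for skeletal actin, Acta1, and muscle creatine kinase, Ckm, which buffers ATP, are shown because they read the transcripts that define the tissue. They lie at chr8:126416197-126416256 on the minus strand and within chr7:20002222-20004829 on the plus strand, where the span is longer than the probe (mouse build mm9).
Acta1 probe: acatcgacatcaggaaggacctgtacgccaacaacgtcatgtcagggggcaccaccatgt
Ckm probe: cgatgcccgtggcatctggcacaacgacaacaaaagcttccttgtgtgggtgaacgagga
The level of Acta1 was 7.90, 9.01, 8.18 and 8.62 in mouse 1 and 9.0, 9.0, 8.91 and 8.39 in mouse 2. That of Pvalb, parvalbumin, was 10.04, 9.46, 10 and 9.76 in mouse 1 and 10.20, 10.22, 9.98 and 9.09 in mouse 2, the brightest mean of any RefSeq-named gene at 9.84. Ckm was read in 7 myofibers, with levels of 7.76 to 8.60, and its spot on the array of myofiber 5 was marked as uneven. All 4 markers, with Myh4, were therefore far above the 75th percentile in every myofiber in which they were read. Smn1 itself, the gene deleted elsewhere in the series, had a level of 2.59, 2.76, 2.91 and 2.38 in mouse 1 and of 2.49, 2.32, 2.18 and 1.59 in mouse 2.

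Of 55681 probes, 16912 (30.4%) were detected, meaning well above background, on all 8 arrays, and 17726 (31.8%) on none. Among the 22942 genes that carry a RefSeq name, 9128 (39.8%) had a probe detected in every myofiber and 6167 (26.9%) had none in any. Sharing was mostly all or nothing, with 2060 probes (3.7%) detected on 4 arrays. Myofiber 8 stood apart. Its array detected 33944 probes, whereas the other 7 detected 23827, 24212, 25857 and 27281 in mouse 1 and 24865, 24879 and 25333 in mouse 2. Of the 6209 probes detected on 1 array only, 4575 were detected in myofiber 8 alone. Its levels correlated with those of the other myofibers at r = 0.886 to 0.931 across probes, while pairs without it reached 0.939 to 0.973. The 75th percentile signal that sets a level of 0 was 157.6 on its array and 91.1 to 130.8 on the others. Its median signal was 37.32, against 14.53 to 21.89. A low level in myofiber 8 is therefore relative to a higher percentile, and the part of this scaling was not tested. Probes detected on all 8 arrays had a median level of 1.07 in it and of 1.27 to 1.36 in the others. For this reason, several values below are given with and without myofiber 8. Without it, 17117 probes were detected on all 7 arrays and 22301 on none.

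**Figure D1:**
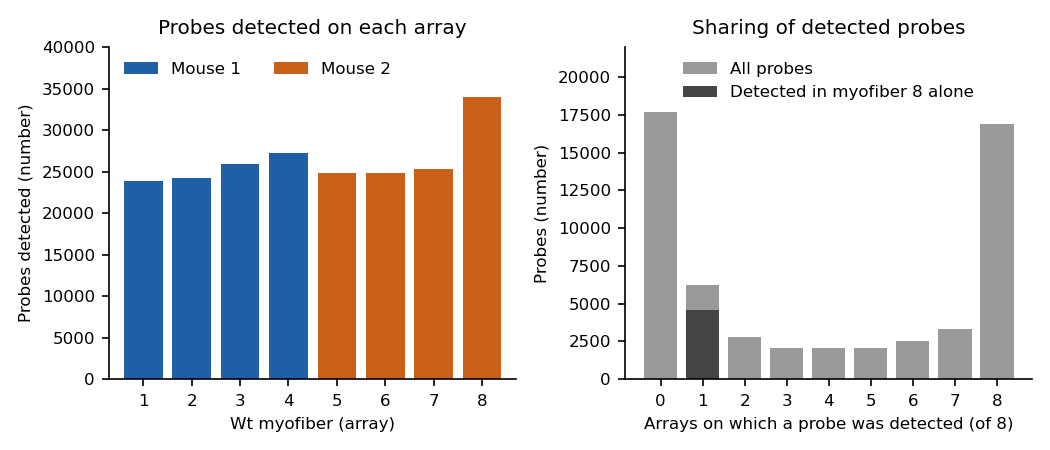
Left, the number of probes detected on the array of each Wt myofiber, with mouse 1 in blue and mouse 2 in orange. Right, the number of probes by how many of the 8 arrays detected them, with those of myofiber 8 alone in dark grey. Myofiber 8 had 33944 detected probes and the other 7 had 23827 to 27281.

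The brightest signals belonged to muscle transcripts and to probes with sequence that many transcripts could share. The 10 brightest RefSeq-named genes were Pvalb, Aldoa, Gapdh, Sp110, Timmdc1, Ms4a4c, Dennd4a, Gm8055, Arl6ip6 and Ubtf, with mean levels from 9.84 down to 9.02. Parts of the probes for Sp110, Ms4a4c and Ubtf are shown because they consist of GT repeats, which the capitals mark. Those for Timmdc1 and Ndor1 are shown because the run in capitals also lies in probes of other genes, 8 for Timmdc1 and 6 for Ndor1. Positions are counted within the probe of 60 bases.
Sp110, bases 6 to 35: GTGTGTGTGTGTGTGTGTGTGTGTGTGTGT
Ms4a4c, bases 9 to 38: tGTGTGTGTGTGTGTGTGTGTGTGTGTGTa
Ubtf, bases 1 to 30: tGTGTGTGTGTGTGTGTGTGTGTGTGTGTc
Timmdc1, bases 10 to 39: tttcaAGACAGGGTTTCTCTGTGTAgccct
Ndor1, bases 13 to 42: ccaggAGGACAGCCAGGGCTACACAgagac
Of the 103 probes with 8 or more GT or AC units in a row, 96 (93.2%) were detected on all 8 arrays, their median level was 8.08, and none went undetected. Of the 47473 probes that shared no run of 20 bases with a probe of another gene, 29.2% were detected on all 8 arrays, with a median level of 1.07. Of the 1001 probes that shared such a run with 3 or more other genes, 69.1% were, with a median of 4.28. Among the 100 brightest RefSeq-named genes, 76 were read by a repeat or shared probe, 44 of them by a repeat. These signals cannot be assigned to the named transcript alone. How far these probes bound other transcripts was not tested.

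With repeat and shared probes set aside, the 15 brightest RefSeq-named genes were Pvalb, Aldoa, Tnnc2, Tnnt3, Rn28s1, ND1, Acta1, Rn4.5s, Tpm1, Myl1, Tnni2, Atp2a1, Ubb, Eno3 and Slc25a4. Rn28s1, the large ribosomal RNA, averaged 8.69, the small RNA Rn4.5s 8.60 and ubiquitin Ubb 8.39. Aldoa, the aldolase of muscle glycolysis, had levels of 8.89, 9.93, 8.84 and 9.64 in mouse 1 and of 9.86, 9.98, 9.62 and 9.26 in mouse 2. Of the fast troponins, which pass the calcium signal to the thin filament, Tnnc2 averaged 8.80 over 7 myofibers, Tnnt3 8.75 and Tnni2 8.52. The mitochondrially encoded ND1, a subunit of complex I, averaged 8.65, tropomyosin Tpm1 8.60, the light chain Myl1 8.56 and the calcium pump Atp2a1 8.51. Eno3, the enolase of muscle, averaged 8.33, the ADP/ATP carrier Slc25a4 8.31 and the glycogen phosphorylase Pygm 8.11. The SDs of these genes between myofibers of a mouse ranged from 0.17 for Slc25a4 to 0.56 for Tnni2. All but Tnnc2 were read on all 8 arrays.

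All 8 myofibers had a bright Myh4 signal, and they differed in Myh1. The level of Myh4 was 7.62, 7.94, 7.25 and 7.13 in mouse 1 and 7.71, 7.13, 7.60 and 7.05 in mouse 2. That of Myh1 was 1.64, 1.59, 3.69 and 2.71 in mouse 1 and 0.70, 0.60, -0.66 and 3.35 in mouse 2. Myofibers 3, 4 and 8 were the highest for Myh1 and myofiber 7 the lowest, and the mice overlapped. The pooled SD between myofibers of a mouse was 1.39 for Myh1, or 0.91 without myofiber 8, and 0.35 for Myh4. The 1 probe for Myh2, the probe for the extraocular Myh13 and both probes for the embryonic Myh3 were not well above background in any myofiber. The slow Myh7 was below the 75th percentile, with levels of -1.05 to -0.38 on 7 arrays. Myh7b was lower still, at -2.65 to -1.48 on 6. The lowest detected values of the arrays were -3.483 to -2.524. The cardiac Myh6 was detected on at most 3 arrays by either of its probes. For Myh8, the perinatal chain, the 4 probes disagreed, since 2 were bright, with means of 8.25 and 7.62, and 2 were never detected, so its level is uncertain. Of the nonmuscle chains, Myh9 was highest in myofiber 7, at 4.30 against 1.52 to 3.12 in the others. The brighter probe for Myh14 lay between 1.58 and 2.49, while its dimmer probe was at -0.91 in myofiber 7 and at 0.79 to 1.65 elsewhere. One of the 2 probes for nonmuscle Myh10 was detected on 6 arrays.

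The sequence just before the start of the 3 adult fast myosin genes is shown because their levels ran from bright in every myofiber (Myh4) through variable (Myh1) to undetected (Myh2). Sequences are from RefSeq on GRCm38.p6, all on the plus strand, at chr11:67237712-67237811 for Myh4, chr11:67200002-67200101 for Myh1 and chr11:67170927-67171026 for Myh2. Capitals mark a TATAAA box.
Myh4: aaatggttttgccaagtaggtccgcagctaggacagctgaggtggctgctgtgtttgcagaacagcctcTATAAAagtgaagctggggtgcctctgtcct
Myh1: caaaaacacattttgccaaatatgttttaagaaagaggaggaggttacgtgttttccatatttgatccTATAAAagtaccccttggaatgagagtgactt
Myh2: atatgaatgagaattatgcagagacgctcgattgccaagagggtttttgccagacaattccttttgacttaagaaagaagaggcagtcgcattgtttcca
TATAAA, searched on both strands in the 50 bases before the start, was present for Myh4 and Myh1 and not for Myh2. It was present there in 1151 of 32851 RefSeq promoters (3.50%). Each window ends at the RefSeq start, and bases beyond it were not searched. The end of the Myh2 window resembles the stretch of the Myh1 window just before its TATAAA. Absence from the Myh2 window therefore does not show that the gene lacks a box. A match describes these letters and no site of binding, and no link to the levels was tested.

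Slow fiber genes were read in part. Of 12 slow sarcomere and calcium genes on the array, 4 were detected in every myofiber, 5 in some and 3 in none. By contrast, 10 of 12 fast genes were detected in every myofiber. The other 2, Tnnc2 and Mybpc2, were each read on 7 arrays and were bright there, at 8.20 to 9.14 and 7.77 to 8.52. Casq2, the slow and cardiac calsequestrin, was not detected. Tnni1, the slow troponin I, was detected on 5 arrays, and Tnnt1, the slow troponin T, on 3. Tnnc1, troponin C of slow and cardiac muscle, had levels of 0.70, 2.72, 2.44 and 2.16 in mouse 1 and of 0.23, 2.84, 2.50 and 0.88 in mouse 2. Myofibers 1, 5 and 8 were thus low for Tnnc1 in both mice, and its pooled SD was 1.09. Atp2a2, the slow calcium pump, had levels of -2.07 to -0.41 on 7 arrays by its brighter probe and of -2.44 to -0.95 on all 8 by the other. Mybpc1, the slow myosin-binding protein C, was read on all 8 arrays by both probes, with levels of 4.12 to 6.0 by the brighter. A probe for Tpm3, the slow tropomyosin, averaged 3.16 on 6 arrays, and its other 2 probes averaged 0.02 and -0.09.

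Myofibers 4 and 8, 1 of each mouse, had the highest levels of several genes tied to oxidative fibers and the Z-disc. These 2 myofibers and the genes below were singled out after their values were seen. The level of Actn2, the Z-disc actinin of slower fibers, was 0.15, 0.29, 0.87 and 3.81 in mouse 1 and 1.81, 0.51, 1.12 and 4.19 in mouse 2. That of Mb, myoglobin, was 3.18, 3.90, 4.35 and 5.44 in mouse 1 and 3.91, 3.74, 3.66 and 5.49 in mouse 2. For both genes, myofibers 4 and 8 were above the other 6. The same pair was highest for Mybpc1 with 5.74 and 6.0 against 4.12 to 5.40. For Ppargc1a, the coactivator of mitochondrial genes, they had 3.30 and 3.43 against 1.66 to 2.86 by its brighter probe, and 0.04 and 0.66 against -1.60 to 0.52 by the other, on which myofiber 4 was not among the highest. For Perm1, a muscle regulator of oxidative genes, they had 2.90 and 2.36 against 0.33 to 1.91. For Lpl, lipoprotein lipase, they had 0.94 and 2.23, and myofiber 7 followed with 0.86. For Hk2, hexokinase, they had 4.28 and 4.41 against 2.22 to 3.78. Hspb7, a small heat shock protein of muscle, had 4.58 and 5.06 there against 1.41 to 3.39. Tnnc1 and Atp2a2, of slow fibers, were not highest in this pair. Tnnc1 had 2.16 and 0.88 there against 0.23 to 2.84. Atp2a2 had -1.74 and -2.44 against -1.98 to -0.95 by the probe read on all 8 arrays. For the 4 slow fiber genes tested, the median deviations from each gene's mean in myofibers 4 and 8 were -0.2 and -0.07. Both myofibers lay in slide row 2 and had the 2 highest counts of detected probes. Myofibers 2 and 6 of the same row had Actn2 levels of 0.29 and 0.51, and Mb levels of 3.90 and 3.74. For whole lists, the median deviations from each gene's mean in myofibers 4 and 8 were 0.43 and 0.06 for oxidative regulators, 0.29 and -0.17 for the TCA cycle, 0.20 and -0.37 for fatty acid genes, 0.11 and -0.52 for the respiratory chain and -0.03 and -0.27 for the sarcomere, against 0.01 and -0.23 for all genes tested. Csrp3, a Z-disc protein of slow and stretched fibers, was high in myofiber 8 only, at 0.56 against -2.79 to -1.73 on the 6 other arrays that read it. The part of depth of detection in these differences was not tested.

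**Figure D2:**
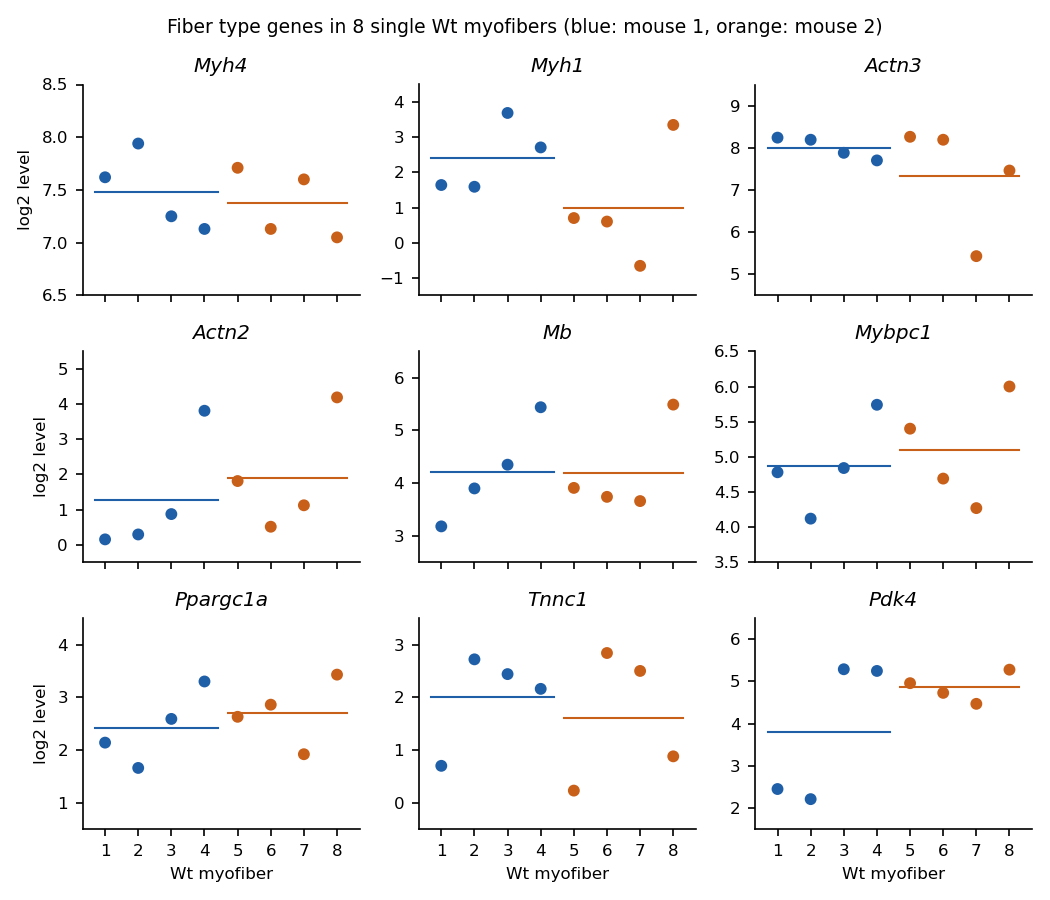
Level (log2, relative to the array's 75th percentile) of 9 fiber type genes in each Wt myofiber, with its own axis range for each gene. Points are single myofibers, blue for mouse 1 and orange for mouse 2, and lines are the mean of each mouse. Myofibers 4 and 8 are the highest for Actn2, Mb, Mybpc1 and Ppargc1a, and Actn3 is lowest in myofiber 7, at 5.43.

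Other genes of fiber metabolism set different myofibers apart. Pdk4, the kinase that turns off pyruvate dehydrogenase when fat is burned, had levels of 2.45, 2.21, 5.29 and 5.25 in mouse 1 and of 4.96, 4.73, 4.47 and 5.28 in mouse 2. Myofibers 1 and 2 were thus the low pair of mouse 1, while all 4 of mouse 2 were high. Actn3, the actinin of fast fibers, was at 7.46 to 8.26 in 7 myofibers and at 5.43 in myofiber 7. Casq1, the fast calsequestrin, was at 5.89 to 6.87 in 7 myofibers and at 4.55 in myofiber 3. Ckmt2, the mitochondrial creatine kinase, was at 3.52 and 3.58 in myofibers 1 and 7 and at 5.01 to 6.07 on the 5 other arrays that read it. Tnnt3, by contrast, lay between 8.40 and 9.13 in all 8 myofibers.

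Across all 16842 genes read in 6 or more of the 8 myofibers, of which 11276 carry a RefSeq name, the median SD between myofibers of a mouse was 0.477 on the log2 scale, a factor of 1.39. The middle 50% of genes lay between 0.351 and 0.644. For comparison, 241 probes with 10 spots each had a median SD of 0.23 between spots of 1 array. Those spots share 1 amplified and labelled sample, so this SD leaves out the error of amplification and labelling. The SD between myofibers includes that error. The SD exceeded 1 for 974 genes (5.78%) and 2 for 36 genes, and lay below 0.2 for 582. The median SD was 0.39 in mouse 1 and 0.47 in mouse 2, or 0.275 in mouse 2 without myofiber 8, and 0.386 in both mice together without it. Across genes, the SDs in the 2 mice had a rank correlation of 0.14, or 0.23 without myofiber 8, which describes genes that share arrays and is not a test. Different probes of a gene also set a limit. For 1904 genes with 2 probes detected on all arrays, the probes' deviations from each mouse's mean had a median correlation of 0.41.

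Lists of cell markers aside, the 5 lists with the lowest median SD held genes of energy supply and of the sarcomere. The median SD was 0.21 for 6 mitochondrially encoded genes, 0.28 for 24 genes of the TCA cycle and pyruvate, 0.34 for 28 sarcomere and Z-disc genes, 0.35 for 24 genes of glycogen and glycolysis and 0.36 for 79 respiratory chain subunits, against 0.477 for all genes. These 5 lists were bright, with median levels of 4.91 to 7.77. The SD also varied with level, with a median of 0.436 over all genes at mean levels of 2.73 to 9.84. The part of level in the low SDs of these lists was not tested. Other energy lists varied more, at 0.45 for 22 fatty acid genes and 0.58 for 8 genes of adenylate and creatine energy buffering. Ugp2, which makes UDP-glucose for glycogen, had the lowest SD of its list at 0.10, with levels from 3.76 to 4.20. Uqcrc2, a core subunit of complex III, had 0.15, and ND1 0.18. In the respiratory list, Uqcrfs1, the Rieske protein, varied most, at 2.10 in myofiber 1 and 5.09 to 5.85 on the 6 other arrays that read it. In the TCA list it was Sdhd, a membrane subunit of succinate dehydrogenase, at -0.04 in myofiber 2 and 3.08 to 4.24 in the others. Without myofiber 8, the medians were 0.20 for mitochondrially encoded genes, 0.21 for glycogen and glycolysis, 0.24 for the TCA cycle, 0.25 for the respiratory chain and 0.28 for the sarcomere, against 0.386 for all genes.

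Several lists varied chiefly through myofiber 8. The 83 ribosomal protein genes had a median SD of 0.44 with it and 0.20 without it, and the 19 excitation-contraction coupling genes 0.52 and 0.29. Mss51, a muscle protein tied to mitochondrial metabolism, was at 1.48 in myofiber 8 and at 4.49 to 5.81 in the others. Cav3, the muscle caveolin, was at 2.34 there and at 3.90 to 4.69 elsewhere. Trim63 and Fbxo32, the ubiquitin ligases of muscle atrophy, were at 0.96 and 2.07 there, against 2.83 to 3.99 and 3.51 to 4.53. The median of the list's deviations from each gene's mean was -0.86 in myofiber 8 for coupling genes and -0.50 for glycolytic genes, against -0.23 for all genes tested. These levels are relative to a 75th percentile signal of 157.6 on its array and of 91.1 to 130.8 on the others. The part of that scaling in the deviations and SDs was not tested.

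Some other lists varied more than all genes. The median SD was 0.66 for 14 oxidative program regulators and oxygen storage genes, 0.60 for 27 immediate early and heat shock genes and 0.78 for 4 slow fiber genes, but 0.40 for 23 myogenic and fiber type transcription factors, of which 5 exceeded the 0.477 of all genes. Without myofiber 8 the medians were 0.52, 0.55, 0.69 and 0.36. Fosb, a transcription factor induced within minutes of stimulation, had levels of 3.95, 2.07, 1.80 and 0.59 in mouse 1 and of 2.23, 2.49, 4.10 and 1.70 in mouse 2. Fos had levels of 4.13, 2.60, 2.78 and 1.98 in mouse 1 and of 2.44, 2.91, 3.72 and 2.86 in mouse 2. Myofibers 1 and 7 were the highest for both, and also for Zfp36, which destabilises inflammatory mRNAs, with 2.28 and 1.38 against -1.03 to 0.39. The heat shock cognate Hspa8 had the lowest SD of the list, 0.26, with levels from 5.96 to 6.60. In the lists of other processes, the largest SDs were 1.30 for Lpl, 1.16 for the clock output gene Dbp, 1.09 for the ribosomal protein Rpl36a, 1.09 for the estrogen-related receptor Esrrg, 1.04 for the heme oxygenase Hmox1, 0.97 for the synaptic adaptor Dok7, 0.93 for Igf2 and 0.80 for myostatin, Mstn. The smallest included 0.16 for Bcl6, 0.17 for Dlat, 0.18 for Plin2, 0.20 for Sod2 and for Pax3, 0.23 for the synaptic scaffold Rapsn, 0.24 for dystrophin, Dmd, 0.26 for Nr1d2 and 0.28 for desmin, Des.

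**Figure D3:**
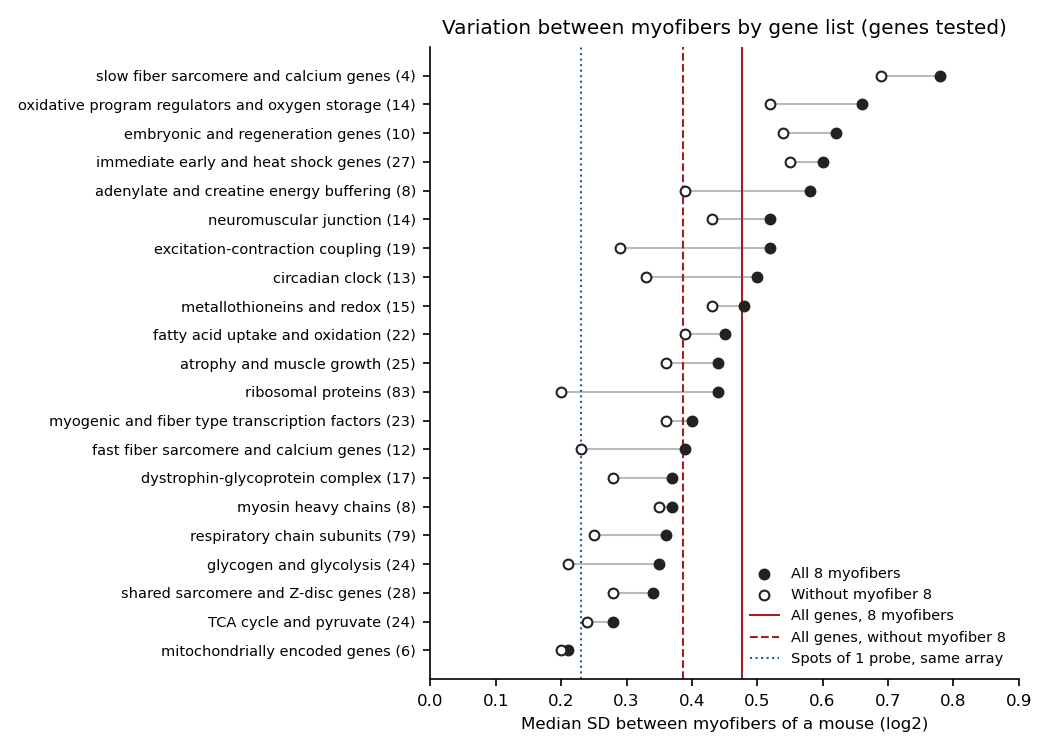
Median SD between myofibers of a mouse (log2 scale) for 21 gene lists, with the number of genes tested in parentheses. Filled points use all 8 Wt myofibers and open points leave out myofiber 8. The solid and dashed lines are the medians of all genes, 0.477 and 0.386, and the dotted line is the median SD between spots of a probe on 1 array, 0.23.

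Myofiber 7 carried transcripts of other cell types. Of 78 detected probes for markers of 9 other cell types, out of 101, 39 were brightest on its array and 13 on that of myofiber 8. Over all probes detected anywhere, 8.20% were brightest on the array of myofiber 7 and 30.8% on that of myofiber 8. The collagen gene Col1a2 had levels of 1.37, 1.36, -0.61 and 0.99 in mouse 1 and of -2.07, -0.11, 5.79 and 0.28 in mouse 2. Dcn and Lum, proteoglycans of connective tissue, were detected in myofiber 7 alone, at 4.85 and -0.14, and Col1a1 was at 4.53 there and at -3.09 in myofiber 8, the other array that detected it. The alpha globin genes Hba-a1 and Hba-a2 were at 4.88 and 3.96 in myofiber 7 and at most -0.84 and -0.31 in the others. The endothelial genes Pecam1, Cdh5 and Tie1 were detected in myofibers 3 and 7 only, at 0.92, 1.58 and 1.10 in myofiber 7 and at -1.58, -1.67 and -1.82 in myofiber 3.

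Summed over the list, with the brightest detected probe for each gene on a linear scale where 1 is the 75th percentile, the 10 fibroblast markers reached 119 in myofiber 7 and 0.924 to 4.01 in the others. The 7 erythrocyte markers on the array reached 49.1 in myofiber 7 and 0 to 1.39 in the others. The 8 smooth muscle and pericyte markers reached 23.2 and 3.11 to 8.56. The 10 endothelial markers summed to 29.6 in myofiber 7, where 10 of 10 were detected, and to 8.95 to 21.1 in the others, where 2 to 8 were. Most of the endothelial sum in the others came from a second probe for Kdr and for Vwf, with levels of 2.29 to 3.59 and 1.46 to 3.17 on all 8 arrays, while the other probe for Kdr was detected only in myofibers 3 and 7. Leukocyte markers summed to 199 to 315 and rested on 1 of the 3 probes for Itgam, with a mean of 7.84. Tendon markers were at 74.0 in myofiber 4, 59.1 in myofiber 7, 47.3 in myofiber 8 and 8.31 to 25.7 in the others, and rested on Thbs4, a thrombospondin of tendon and stressed muscle. The markers Pdgfra, Dpt and Comp were not well above background on any array. The satellite cell sums were 0.68 to 3.54, the Schwann and nerve sums 1.96 to 4.94 and the adipocyte sums 0.193 to 1.68. Myofiber 7 was therefore high in immediate early genes and in markers of other cells at the same time, and the part of the latter in its Fos and Fosb levels was not tested. Myofiber 1, also high in both genes, had a fibroblast sum of 4.01 and an erythrocyte sum of 0.878.

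**Figure D4:**
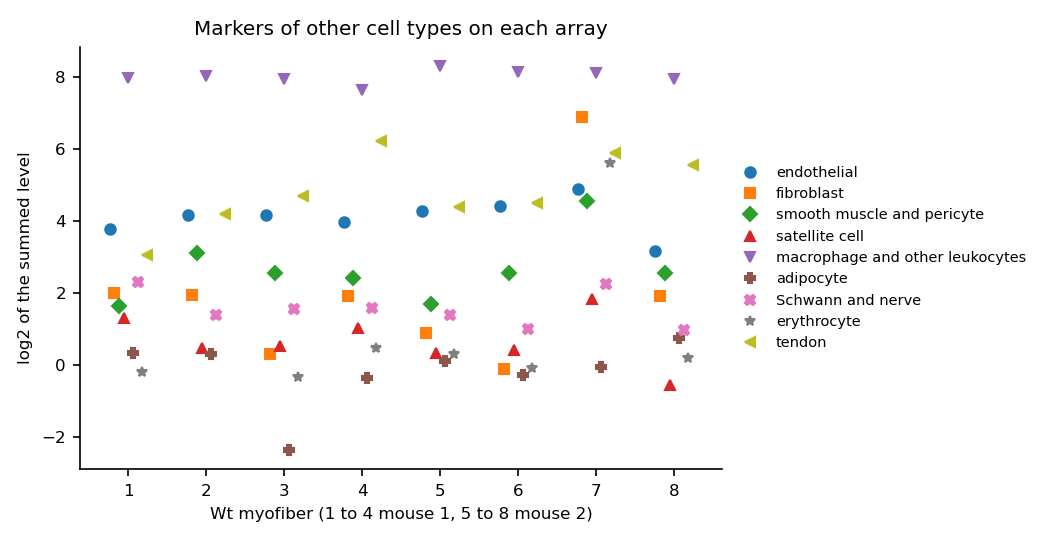
Log2 of the summed level of the markers of 9 other cell types in each Wt myofiber, where a value of 0 is the array's 75th percentile. An erythrocyte sum of 0, in myofiber 2, has no point. Fibroblast (119) and erythrocyte (49.1) sums are highest in myofiber 7.

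The RefSeq-named genes that varied most between myofibers of a mouse, among those read on all 8 arrays, were Fbxo39, Ciita, Col1a2, Gm17019, Atp1b1, Ndor1, Tdpoz8, Htra1, Adig and Marchf1, with pooled SDs from 2.85 down to 2.06. Features without a RefSeq name are not listed, and some varied as much or more. For 4 of the genes, 1 myofiber set much of the SD: without it the SD was 1.08 for Col1a2 (myofiber 7), 1.16 for Htra1 and 1.45 for Atp1b1 (myofiber 8) and 1.18 for Adig (myofiber 1). When the smaller of the 2 mice's SDs was ranked instead, Pcsk1n, Nkd2 and AB124611 entered with smaller SDs of 1.75, 1.65 and 1.62. Fbxo39, an F-box protein, had levels of 0.54, 0.55, 1.04 and 5.32 in mouse 1 and of -0.39, 4.60, -1.17 and 5.21 in mouse 2. Myofibers 4, 6 and 8 were thus high and the other 5 low. Atp1b1, the beta subunit of the sodium pump, had levels of -1.90, -1.07, -0.44 and 2.41 in mouse 1 and of -1.77, -1.64, -1.95 and 3.46 in mouse 2, so myofibers 4 and 8 were again the high pair. Htra1, a secreted protease, was low in these 2 myofibers, at 0.38 and -2.62 against 2.34 to 3.73. Pcsk1n, an inhibitor of prohormone convertase, was at 1.58, 1.96 and 1.89 in myofibers 1, 4 and 8 and at 4.59 to 5.46 in the other 5. Adig, an adipogenin, was at 0.47 in myofiber 1 and 3.41 to 6.93 elsewhere. Ndor1, an oxidoreductase read by the shared probe shown above, was at 2.76 and 2.73 in myofibers 2 and 7 and at 6.94 to 7.66 in the other 6. Its SD fell from 2.26 to 1.15 when all probes of the gene were averaged, that of Marchf1 from 2.06 to 0.96 and that of AB124611 from 2.02 to 0.81.

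Several of these genes followed the slide row. Ciita, the activator of class II antigen genes, had levels of -0.41, -1.74, -1.19 and -0.83 in row 1 and of 1.73, 2.71, 3.42 and 4.48 in row 2. Marchf1, a ubiquitin ligase, had 2.89, 2.72, 4.65 and 3.77 in row 1 and 6.50, 6.16, 8.20 and 7.22 in row 2. AB124611 had 4.09, 2.46, 5.12 and 4.30 in row 1 and 7.43, 6.89, 7.85 and 6.92 in row 2. Neither row overlapped the other for these 3 genes. A limma fit with mouse and slide row called 21 of 16842 genes between the rows (0.125%), 14 higher and 7 lower in row 2, 11 of them with a RefSeq name, and 1843 (10.9%) reached an unadjusted p below 0.05. The differences were 4.13 ± 0.46 (SE) for Ciita, 3.51 ± 0.31 for Marchf1 and 3.28 ± 0.44 for AB124611, with limma adjusted p of 0.0143, 0.00306 and 0.0369. Alyref2 and Rps23rg1 were lower in row 2, by -2.29 and -2.16. For Mb and Actn2 the row differences were 0.87 and 1.21, with limma adjusted p of 0.526 and 0.615. Across genes, deviations from the mouse mean were correlated between myofibers of different mice. The correlations were 0.07 to 0.25 for pairs in the same row and -0.25 to -0.01 for pairs in different rows. The slide row was looked at after these values were seen, and its part in the spread was not tested further.

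**Figure D5:**
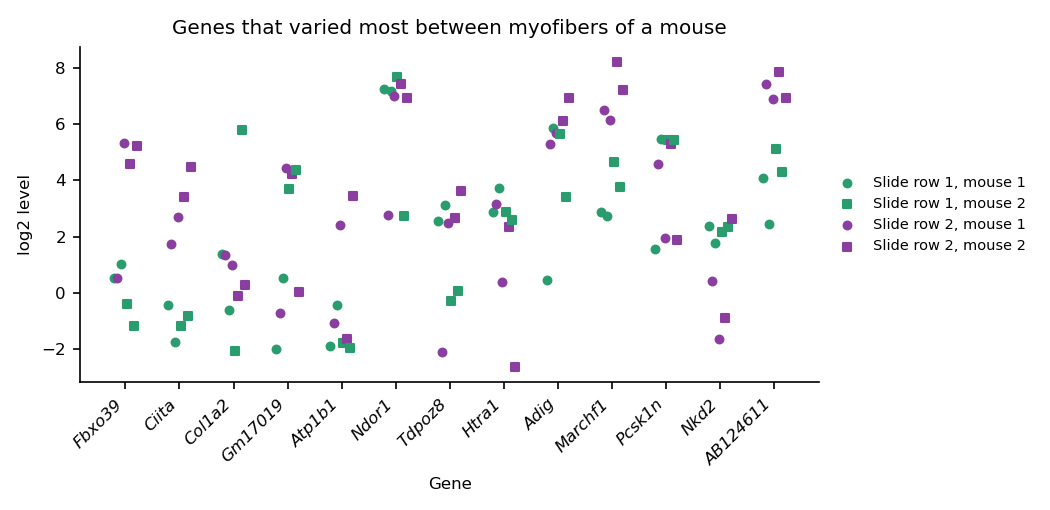
Level (log2, relative to the array's 75th percentile) of the 13 RefSeq-named genes that varied most between Wt myofibers of a mouse, 1 point a myofiber, with slide row 1 in green, row 2 in purple, mouse 1 as circles and mouse 2 as squares. The rows do not overlap for Ciita, Marchf1 and AB124611, and 1 point of row 1 stands above the rest for Col1a2, at 5.79.

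No gene was called between the 2 mice. With limma, 0 of 16842 genes (0%) passed an adjusted p of 0.05 between mouse 2 and mouse 1, and 935 (5.55%) reached an unadjusted p below 0.05. Among 12726 genes read on all 8 arrays, 575 (4.52%) had values that did not overlap between the mice. Of these, 449 were higher in mouse 1 and 126 higher in mouse 2. In myofiber 8 of mouse 2, the median deviation over all genes tested was -0.23, and its part in this split was not tested. The mean correlation was 0.9403 within a mouse and 0.9388 between mice, a difference of 0.0015 (exact one-sided permutation test over 35 splits, p = 0.229).

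The largest differences among RefSeq-named genes read on all 8 arrays did not pass the test. Pttg1, securin, which holds back the separation of sister chromatids, had levels of 3.48, 3.12, 3.46 and 3.38 in mouse 1 and of -0.76, -0.99, -0.91 and 2.78 in mouse 2. The difference was -3.33 ± 0.71 (SE, limma adjusted p = 0.673). Myofiber 8 was thus near mouse 1. Without it the difference was -4.25 and Pttg1 was the only gene called, with a limma adjusted p of 0.000143. Mt2, a metallothionein that binds zinc, had levels of 5.73, 5.14, 4.36 and 3.78 in mouse 1 and of 2.01, 2.42, 2.44 and 4.00 in mouse 2, and myofiber 8 again overlapped mouse 1. Klhl38 had 3.80, 3.80, 3.36 and 2.78 in mouse 1 and 1.12, 1.54, 1.47 and 1.58 in mouse 2, with no overlap, and a difference of -2.0 ± 0.30 (limma adjusted p = 0.491). Arid5b differed by -1.76, also without overlap. In the other direction, Gm17019 differed by 2.52, A530072M11Rik by 2.50, the amine oxidase Aoc3 by 2.39 and Gm15517 by 2.30, and each overlapped between the mice.

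Of 13 clock genes tested, 2 were lower and 2 higher in mouse 2 at an unadjusted limma p below 0.05, and none was called. The genes below were chosen after their values were seen. Dbp, driven by the clock, had levels of 2.54, 2.99, 3.16 and 2.68 in mouse 1 and of 4.84, 4.98, 4.44 and 1.55 in mouse 2. Arntl, the core activator, had 0.60, 0.75, 0.89 and 0.33 in mouse 1 and -0.60, -0.80, -0.64 and 0.27 in mouse 2. In mouse 2, myofiber 8 was thus the lowest for Dbp and the highest for Arntl. Over the whole list, the median deviations were 0.34, 0.17 and 0.44 in myofibers 5 to 7, -0.86 in myofiber 8 and -0.45 to 0.18 in mouse 1. The hour at which each mouse was killed is not given in the sources used here. When each myofiber in turn was left out of the choice of genes whose values separated the mice by more than 1, myofiber 8 lay nearer the other mouse for 7 of 11 genes, myofiber 4 for 5 of 10, and the other 6 myofibers for 0 to 3 of 3 to 7 genes.

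Atrophy and growth genes were read in both mice, and none was called. Of 25 tested, 9 had an unadjusted limma p below 0.05, all lower in mouse 2, against 5.55% of all genes in either direction. The median difference over the list was -0.25, and the median deviation of the list in myofiber 8 was -0.61. Fbxo32 had levels of 4.53, 4.30, 4.41 and 3.89 in mouse 1 and of 3.84, 3.79, 3.51 and 2.07 in mouse 2, with no overlap and a limma adjusted p of 0.885. For the 12 fast fiber genes, the 24 glycolytic genes and the 6 mitochondrially encoded genes, the median differences were -0.06, -0.02 and 0.04, and no gene reached an unadjusted p below 0.05.

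Of all 55681 probes, 49 (0.088%) were detected on all 4 arrays of 1 mouse and on none of the other, 17 for mouse 1 and 32 for mouse 2. A bound on each fold was set, on each array of the other mouse, by the lowest signal of any detected probe or by the probe's own signal where that was higher. 2610507I01Rik was at least 7.08-fold higher in mouse 1, Rbbp9 at least 4.63-fold, Nras at least 2.89-fold, Tfpi, the inhibitor of tissue factor, at least 2.78-fold and Hs6st2 at least 2.57-fold. In mouse 2, Ptn, a heparin-binding growth factor, was at least 3.16-fold higher, Gm7298 at least 2.31-fold, Pkhd1l1 at least 2.04-fold and Zscan20 at least 1.94-fold. Ccdc144b rested on myofiber 8, with a level of 0.77 against -2.50 to -1.46 in the other 3 of mouse 2 and a bound of -1.91 in mouse 1, so no fold is given. For Ptn, 1 myofiber set most of the difference, since its level was 1.82 in myofiber 7 and -2.28 to -1.86 in the other 3 of mouse 2.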

How the data were processed

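Single-myofiber RNA was amplified, labelled with Cy3 and hybridised to 1-colour SurePrint G3 Mouse 8x60K arrays. The deposited values are spot intensities from Agilent Feature Extraction (version 10.7.3.1, per the labels), corrected for background by the authors' scanner software. From these, log2 processed signals of non-control probes were averaged over spots and scaled to each array's 75th percentile (pseudocount 0). A probe counted as detected when well above background and not uneven on over 50% of its spots. Values of undetected probes were left out, and a probe entered the tests when 75% or more of its values remained. A gene was represented by its brightest probe. Of 55681 probes, 31239 were named through RefSeq tables by accession, symbol or synonym. No spot was saturated. The number of arrays, 8, limits the precision.

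The SD between myofibers was pooled over the 2 mice. The mice were compared with limma (version 3.58.1, R 4.3.3) and Benjamini-Hochberg adjustment. A missing value was dropped from a gene's fit. The scripts were tested on simulated data. Alternatives covered the scaling, background correction (normexp, offset 50), the series' table of processed intensity deposited by the authors, filters, the probe per gene, detection, the replicate block and left-out myofibers. The 19 columns of other groups in that table and their arrays were not used. Slide rows and shared probes were examined after seeing the data.

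Members and gene lists were chosen with earlier results of these data known. Named, among RefSeq-named genes, were the marker and myosin genes, the 10 brightest, the 10 most variable by each of 2 rankings, the 4 largest differences between the mice in each direction, up to 5 detected in 1 mouse only in each direction, each list's extremes, and markers of other cells. Other genes were named after their values were seen.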

Additional observations from a re-analysis of the deposited data

Results flagged for a closer look

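In 210 groups of 4 myofibers of a mouse, 31 had a myofiber whose gap to the nearest of the others took up over 82.9% of the range. Chance flags about 1 in 20 groups, but that rate does not hold here, since many of the genes were chosen for their spread or after their values were seen. Of the 31, 17 were myofiber 8 and 5 myofiber 7. No explanation was weighed.

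Myofiber 8 detected 33944 probes, against 24865 to 25333 in the rest of mouse 2. It was highest in mouse 2 for Atp1b1 at 3.46, Csrp3 at 0.56, Mb at 5.49 and Pttg1 at 2.78. Levels are relative to the array's 75th percentile signal, 157.6 in myofiber 8 and 91.1 to 108.2 in the rest of mouse 2. On that scale, myofiber 8 was lowest for Acta1 at 8.39, Cacnb1 at 4.79, Cav3 at 2.34 and Dbp at 1.55. It was lowest too for Gm17019 at 0.03, Htra1 at -2.62 and Mss51 at 1.48. It was also lowest for Trim63 at 0.96, Pcsk1n at 1.89, Arid5b at -1.58, the satellite cell cadherin Cdh15 at -2.14 and the bright probe for Kdr at 2.29.

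Myofiber 7 was highest in mouse 2 for the summed erythrocyte markers, at 5.62 on the log2 scale against -0.10 to 0.30, for Hba-a1 at 4.88 and for the myelin gene Pmp22 at 0.62, and lowest for Ckmt2 at 3.58 and Ndor1 at 2.73.

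Of the others, myofiber 2 was highest in mouse 1 for the bright probe of Gapdh, which shares a run with 1 other gene, at 9.74, and lowest for Ndor1 at 2.76 and Tdpoz8 at -2.08. Myofiber 1 was lowest for Adig at 0.47, myofiber 4 highest for Fbxo39 at 5.32, and myofiber 3 lowest for the summed fibroblast markers at 0.30 on the log2 scale. In mouse 2, myofiber 5 was highest for Rapsn at 2.69 and lowest for the smooth muscle gene Tagln at 0.58, and myofiber 6 was lowest for Nkd2 at -0.89.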

How the results depend on the processing

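The count of genes called between the mice by limma stayed at 0 under each alternative except without mouse 2 replicate 4 (myofiber 8), which gave 1. Across left-out myofibers it was 0 to 1, with 618 to 1187 genes at an unadjusted p below 0.05. Without any filter, 1650 of 35440 reached that p. The replicate number as a block gave 0 called and 1195 at an unadjusted p. Deviations of same-numbered myofibers of the 2 mice correlated at 0.16, 0.07, 0.16 and 0.25 across genes. Other pairs across the mice correlated at 0.09 to 0.22 in the same slide row and at -0.25 to -0.01 in different rows. The numbers were therefore not taken as pairs. The slide row as a block, chosen after seeing the data, gave 0 called and 1125.

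The median SD of 0.477 moved to 0.31 with normexp and to 0.584 without a filter, and ranged from 0.386 to 0.483 across left-out myofibers. The within-minus-between correlation of 0.0015 ranged from -0.0037 to 0.005 across them, and turned negative without mouse 1 replicate 1, 2 or 3 (-0.0037, -0.0012 and -0.0013). The causes were not tested beyond the construction of each alternative. Probes detected on all arrays changed by less than a factor of 1.5 throughout. For named genes, 143 of 144 differences between the mice kept their sign and side of the threshold, the exception being Pttg1 without myofiber 8, and none was reversed. These genes were chosen as the largest differences and none was called in the main fit, so the count says little about stability. Of 284 SDs of single genes under alternatives, 241 moved by less than the SD of the gene's 2 single-mouse SDs and 43 by more. Spots below background set the limit on faint genes.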
